A study of Mus musculus with 6 samples.

Results

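Genes for secreted antimicrobial and acute-phase proteins were followed in sorted mouse lung epithelial cells, among them alveolar epithelial type II (AT2) cells. They were chosen by symbol (Lyz1, Lyz2, Lcn2, Slpi, Wfdc2, Saa3, Ltf, Reg3g and Chia1), and all 9 were found among the 52550 genes of the deposited count table. All 9 passed the filter on low counts and were tested. AT2 cells are the surfactant-producing cells of the lung alveolus. The 6 libraries came from C57BL/6 lungs carrying Sftpc+/creERT2, a tamoxifen-dependent Cre placed at the surfactant protein C locus, together with homozygous floxed Grp78 (Grp78f/f). The 3 control libraries bear the genotype label "without Tmx" and the 3 libraries labelled knockout "with Tmx", so tamoxifen and loss of Grp78 cannot be told apart. A second label places all 6 samples, controls too, at day 10 after tamoxifen, which conflicts with the first for the controls. Cre acts only in cells that express Sftpc, and cells were enriched by magnetic sorting as CD45-negative and EPCAM-positive. The labels give no age and do not say whether replicates were separate mice, so the tests may measure technical spread alone.

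AT2 cells and airway secretory cells release proteins into the lining fluid that act on microbes before leukocytes arrive. Lysozymes cut the peptidoglycan of bacterial walls. Lipocalin 2 (Lcn2) and lactotransferrin (Ltf) deprive bacteria of iron, the first by binding their siderophores and the second by binding the metal. Slpi and Wfdc2 are whey acidic protein (WAP) domain proteins, Reg3g is a lectin that binds Gram-positive bacteria, Saa3 is an acute-phase serum amyloid A, and Chia1 is an acidic chitinase. All are made on the endoplasmic reticulum (ER), where Grp78, the product of Hspa5, is the main chaperone.

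Library totals ran from 110770711 to 149520306 counts. Levels are given as CPM, a gene's count relative to the library total, scaled by the trimmed mean of M values (TMM), a factor that centres the bulk of genes. Hspa5, the targeted gene, was at 1355, 1289 and 925 CPM in controls 1 to 3 and at 9262, 9180 and 3809 CPM in libraries 1 to 3 labelled knockout. It was thus higher in every library labelled as lacking it, and whole-gene counts do not show whether the floxed exons were lost. Directions below are between libraries as labelled. All 16 AT2 markers tested, Lyz2 and Sftpc among them, were called lower. The 15 other than Lyz2 summed to 114197 to 131709 CPM in controls and to 45811 to 57545 CPM in the libraries labelled knockout. Ptprc, which encodes CD45, was at 0.963 to 2.07 CPM except in library 3 labelled knockout (10.99 CPM). In bulk RNA, fewer cells of a type and less RNA per cell cannot be told apart.

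Of the 9 genes, Lcn2, Slpi, Saa3 and Ltf were called higher and Lyz1, Lyz2, Wfdc2 and Chia1 lower in the libraries labelled knockout, while Reg3g missed the threshold. A call is an adjusted p under 0.05 in edgeR's quasi-likelihood test, corrected by the Benjamini-Hochberg method over the 18849 genes tested. Over all those genes 36.8% were called, 18.0% higher and 18.8% lower. The libraries of the 2 groups did not overlap for any of the 9 genes, and did not overlap for 51.6% of all genes tested. These 9 genes, and the other gene lists below, were chosen with earlier results of these data known. Their shares beside those of all genes are therefore descriptive and test nothing. The median log2 fold over the 9 genes, 1.04, was that of Slpi, the smallest of the 5 positive folds, and describes no common shift. Over all genes tested the median was 0.02. The genes that rose were the less abundant ones and those that fell the more abundant, so the 9 genes together went down, from 4.35%, 3.92% and 4.10% of all counts in controls to 1.88%, 1.81% and 2.48%. The 5 genes with a positive fold summed to 605, 561 and 480 CPM in controls and to 1738, 1796 and 1184 CPM in the libraries labelled knockout.

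**Figure D1:**
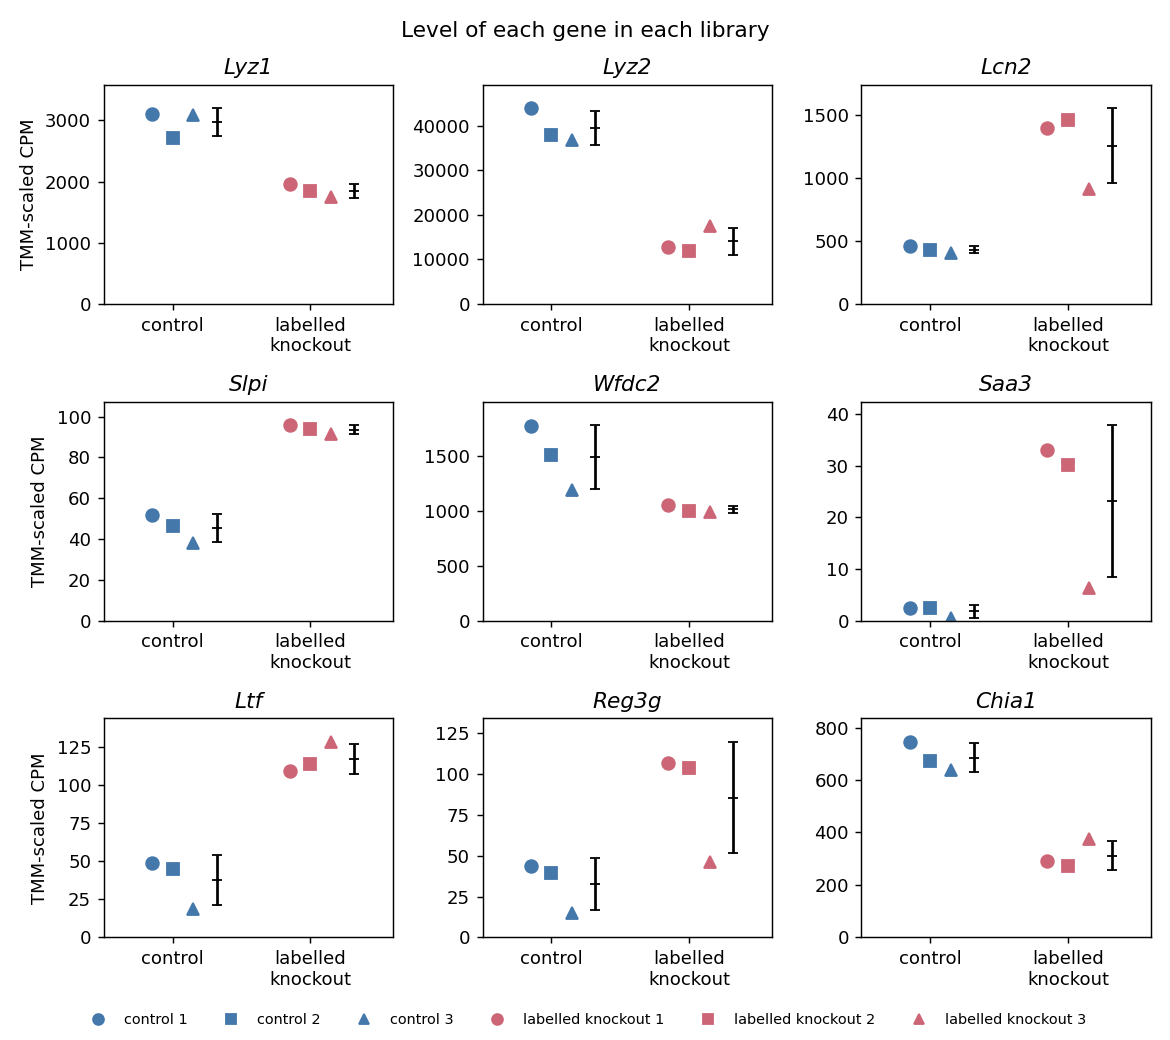
TMM-scaled CPM (vertical axis, from 0) of each of the 9 genes in the 3 control libraries (blue) and the 3 libraries labelled knockout (red), with symbols for the library number and the mean and SD of each group in black. In every panel the 2 groups are separate. Library 3 labelled knockout lies nearest the controls for Lyz2, Lcn2, Slpi, Saa3, Reg3g and Chia1, whereas for Ltf it is the highest.

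Divided by the union of annotated exons, levels in controls ran from Lyz2 (30020 CPM per kb) through Lyz1 (2354), Wfdc2 (1306), Chia1 (360), Lcn2 (164), Slpi (38.6), Reg3g (15.5) and Ltf (10.9) to Saa3 (0.694). In the libraries labelled knockout the only change of order was between Lcn2, at 478 CPM per kb, and Chia1, now below it at 164. The union takes in every annotated exon (2623 bases for Lcn2 and 1903 for Chia1) and may exceed the length of the transcript in use. The order, and this change in it, depend on that length. Reg3g and Ltf overlapped across libraries in both groups, and no other neighbours in the order did.

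Lyz2 encodes the lysozyme of macrophages, which in mouse is also a marker of mature AT2 cells. Its level was 43875, 37856 and 36788 CPM in controls 1 to 3 and 12723, 11932 and 17370 CPM in libraries 1 to 3 labelled knockout. All 3 controls lay above all libraries labelled knockout, among which library 3 was the highest. The gene fell 2.82-fold, a log2 fold of -1.50 with an SE of 0.210 (edgeR adjusted p = 0.00228), and went from 3.43% to 3.81% of all counts in controls to 1.28% to 1.99%. It lies on chromosome 10 (117277331 to 117282321, minus strand, mm10; ENSMUSG00000069516.8).

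Lyz1, the lysozyme known from intestinal Paneth cells, sits 5475 bases from Lyz2 (117287797 to 117292868, minus strand; ENSMUSG00000069515.6). It was at 3113, 2714 and 3092 CPM in controls and at 1954, 1846 and 1740 CPM in the libraries labelled knockout. Here library 3 labelled knockout was the lowest of all, unlike for Lyz2. The fall was 1.61-fold (log2 fold -0.69 with an SE of 0.134, edgeR adjusted p = 0.00739). Lyz1 fell less than Lyz2, and so its counts per 100 Lyz2 counts were 7.09, 7.17 and 8.41 in controls and 15.4, 15.5 and 10.0 in the libraries labelled knockout. That ratio differed by 0.83 on the log2 scale (control mean -3.73 ± 0.137, labelled knockout -2.90 ± 0.359, SD, n = 3 each), with an exact two-sided permutation p of 0.1, the smallest that 3 libraries against 3 can give.

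The lysozyme transcripts are 95.96% identical over 1262 aligned bases, and their longest common run is 118 bases. None of the 1114 windows of 150 bases (the read length in the labels) in Lyz1 transcripts occurred in a transcript of another gene, and the same held for the 1167 windows of Lyz2. How the authors counted reads that align to both genes is not given in the sources used here, so the split between these 2 genes is uncertain. With Lyz1 and Lyz2 counted as 1 gene, the pair had a log2 fold of -1.42 with an SE of 0.200 (edgeR adjusted p = 0.00232). The 250 bases before each RefSeq start (GRCm38.p6, both on the minus strand) are shown because the pair is so alike yet moved by different amounts. Capitals mark TTNNGCAA, a core recognised by C/EBP factors, searched on both strands:
Lyz1, chr10:117292869-117293118: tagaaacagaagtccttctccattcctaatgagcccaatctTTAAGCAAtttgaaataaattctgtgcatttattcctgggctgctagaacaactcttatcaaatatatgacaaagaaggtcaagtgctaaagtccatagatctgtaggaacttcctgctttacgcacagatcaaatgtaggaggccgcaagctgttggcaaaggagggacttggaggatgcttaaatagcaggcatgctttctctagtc
Lyz2, chr10:117282273-117282522: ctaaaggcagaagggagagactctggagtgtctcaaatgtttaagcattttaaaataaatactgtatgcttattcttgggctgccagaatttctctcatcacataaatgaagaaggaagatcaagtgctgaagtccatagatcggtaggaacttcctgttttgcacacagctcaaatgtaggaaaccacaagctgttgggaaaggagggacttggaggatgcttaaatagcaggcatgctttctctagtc
These 2 windows are 80.65% identical over 248 aligned bases. The core is in the Lyz1 window, at -209 to -202 from the start, and its letters are not in the Lyz2 window, which holds the looser TTNNGNAA at -55 to -48.

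**Figure D2:**
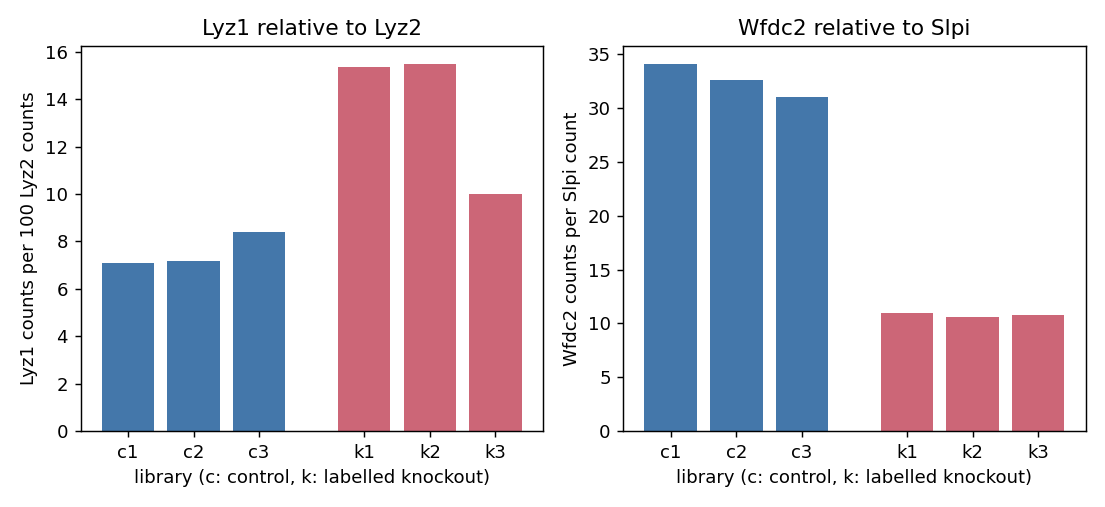
Counts of Lyz1 per 100 counts of Lyz2 (left) and counts of Wfdc2 per count of Slpi (right), 1 bar for each library, controls in blue and libraries labelled knockout in red. Lyz1 stood at 7.09 to 8.41 per 100 Lyz2 counts in controls and at 10.0 to 15.5 in the libraries labelled knockout, while Wfdc2 went from 31.0 to 34.0 counts per Slpi count to 10.6 to 10.96.

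Macrophages also express Lyz2. Of 18 macrophage markers tested 4 were called higher and 0 lower. The 19 listed summed to 170 to 213 CPM in 5 libraries and to 498 CPM in library 3 labelled knockout, the library with the highest Lyz2 of its group. In those 5 libraries Cd14 (76.0 to 101 CPM) and Plet1 (47.8 to 75.9 CPM) made up most of the sum, which thus understates the difference. C1qa went from 0.0614 to 0.322 CPM in them to 15.6 CPM, and Ctss from 0.791 to 1.89 CPM to 30.6 CPM. All listed genes but Cd14, Fabp4 and Ear1 were highest in library 3 labelled knockout. Marco, a defining alveolar macrophage gene, was at 2.62 CPM there and at 0 to 0.0588 CPM in the others. The part of these cells in the Lyz2 level of that library was not tested. Leaving it out gave Lyz2 a log2 fold of -1.68 (edgeR adjusted p = 0.000274).

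The WAP domain genes Slpi and Wfdc2 lie on chromosome 2, 173317 bases apart, and moved in opposite directions. Slpi (164354070 to 164389095, minus strand; ENSMUSG00000017002.14) encodes an inhibitor of neutrophil elastase and cathepsin G that also kills bacteria. It was at 51.9, 46.4 and 38.3 CPM in controls and at 95.8, 93.7 and 91.5 CPM in the libraries labelled knockout. The latter 3 values lay close together, and every control was far below them. Slpi rose 2.06-fold (log2 fold 1.04 with an SE of 0.118, edgeR adjusted p = 0.00111).

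Wfdc2 (164562413 to 164568510, plus strand; ENSMUSG00000017723.11), known as HE4, encodes an abundant airway protein. It stood at 1766, 1511 and 1188 CPM in controls and at 1050, 995 and 989 CPM in the libraries labelled knockout. Control 3 came close to the libraries labelled knockout without overlapping them. The gene fell 1.47-fold (log2 fold -0.56 with an SE of 0.165, edgeR adjusted p = 0.0331). The call ended when control 1 was left out (edgeR adjusted p = 0.0904), when control 2 was (0.107), when library 1 or 2 of those labelled knockout was (0.0833 and 0.108) and with scaling by library size alone (log2 fold -0.29, edgeR adjusted p = 0.113). Counts of Wfdc2 per count of Slpi, which need no scaling, were 34.0, 32.6 and 31.0 in controls and 10.96, 10.6 and 10.8 in the libraries labelled knockout.

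Both iron-withholding genes rose. Lcn2 (chromosome 2, 32384633 to 32388252, minus strand; ENSMUSG00000026822.14) was at 458, 428 and 407 CPM in controls. In libraries 1 to 3 labelled knockout it reached 1393, 1455 and 911 CPM. Library 3 stood lowest of its group, still well above every control. The rise was 2.91-fold (log2 fold 1.54 with an SE of 0.192, edgeR adjusted p = 0.0015), and Lcn2 moved from between the 259th and 286th to between the 47th and 74th most abundant gene.

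Ltf (chromosome 9, 111019271 to 111042767, plus strand; ENSMUSG00000032496.7) stood at 49.1, 45.0 and 18.9 CPM in controls and at 109, 114 and 128 CPM in the libraries labelled knockout. Control 3 was the low one, and library 3 labelled knockout was the highest, the reverse of its place for Lcn2. Ltf rose 3.11-fold (log2 fold 1.64 with an SE of 0.330, edgeR adjusted p = 0.00974).

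Lcn2 and Ltf are also stored in neutrophil granules. Of 14 neutrophil markers tested 4 were called higher and 0 lower (28.6%, against 36.8% of all genes tested). Those called were Mmp8 (log2 fold 4.10), Mmp9 (2.13), Retnlg (1.58) and Csf3r (1.37). Their means in the libraries labelled knockout were 1.02, 1.03, 3.78 and 0.523 CPM, from 0.0588, 0.235, 1.27 and 0.202 CPM in controls. The 16 listed summed to 5.17 to 12.7 CPM in 4 libraries and to 25.0 and 28.7 CPM in control 3 and library 3 labelled knockout. Ly6g, a defining marker, had 0 to 8 counts per library, and S100a8 was at 0.272 to 4.03 CPM. Control 3, with the highest neutrophil marker sum of the controls, had the lowest Ltf and Lcn2. Library 3 labelled knockout, with the highest sum of all, had the highest Ltf and the lowest Lcn2 of its group. The part of neutrophils in the levels of Lcn2 and Ltf was not tested. Without both libraries numbered 3 the log2 folds were 1.69 for Lcn2 and 1.25 for Ltf (edgeR adjusted p = 8.76e-08 and 3.56e-07). That fit keeps only libraries 1 and 2 of each group, which differed least from each other. Its small adjusted p therefore rest on a reduced spread and are not stronger evidence.

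Saa3 and Reg3g are induced in epithelia during inflammation. Saa3 (chromosome 7, 46711998 to 46715700, minus strand; ENSMUSG00000040026.8) had the largest fold of the 9 genes and the lowest level. It was at 2.51, 2.51 and 0.413 CPM in controls (286, 339 and 54 counts) and at 33.0, 30.2 and 6.24 CPM in the libraries labelled knockout (4487, 3592 and 880 counts). Within each group the library numbered 3 was several times lower than the other 2. Saa3 rose 12.8-fold (log2 fold 3.68 with an SE of 0.822, edgeR adjusted p = 0.0139). The call ended when library 1 labelled knockout was left out (log2 fold 3.33, edgeR adjusted p = 0.0613), as it did with no filter on low counts (edgeR adjusted p = 0.0839).

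Reg3g (chromosome 6, 78466269 to 78468872, minus strand; ENSMUSG00000030017.2) stood at 44.0, 39.5 and 14.6 CPM in controls and at 107, 104 and 46.3 CPM in the libraries labelled knockout. Library 3 labelled knockout was barely above control 1. Its log2 fold of 1.39, with an SE of 0.464, missed the threshold (edgeR adjusted p = 0.0531). With the replicate number as a block, which compares each library with the one of its number, the log2 fold was 1.44 and Reg3g was called (edgeR adjusted p = 0.000924). It was also called without library 3 labelled knockout (log2 fold 1.69, edgeR adjusted p = 0.0142).

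Control 3 was the lowest control for 8 of the 9 genes, all but Lyz1, and it was low in airway secretory markers too. Relative to the mean of the controls, its log2 level was -2.13 for Saa3, -1.16 for Reg3g, -0.99 for Ltf, -0.33 for Wfdc2 and -0.25 for Slpi, and it was -0.11 for Chia1, -0.10 for Lyz2 and -0.08 for Lcn2. Of 17 airway secretory markers tested 1 was called higher and 2 lower. They summed to 67507 and 63946 CPM in controls 1 and 2, to 38567 CPM in control 3 and to 37836 to 41956 CPM in the libraries labelled knockout. Scgb1a1, Cbr2 and Cyp2f2 made up most of that sum, and other markers did not all follow it. Cyp2f2 was at 5492, 5130 and 3233 CPM in controls and at 3514, 3476 and 3175 CPM in the libraries labelled knockout. Bpifb1 was low in control 3 alone (282, 256 and 86.6 CPM in controls, 241, 251 and 258 CPM in the libraries labelled knockout). So was Scgb3a1 (305, 263 and 103 CPM, then 284, 287 and 344 CPM). Scgb1a1, the defining club cell gene, was at 48330, 46148 and 26136 CPM in controls and at 27830, 30127 and 26914 CPM in the libraries labelled knockout. Sftpc, the AT2 gene, was at 54845, 47646 and 43706 CPM in controls. At 15506, 14460 and 18606 CPM it lay below Scgb1a1 in every library labelled knockout. The 12 ciliated markers, 5 called higher and 0 lower, summed to 2865 to 4086 CPM across libraries. The material was thus a mixed epithelium. The part of airway cells in the levels of these 8 genes was not tested. With control 3 left out the log2 folds were 3.20 for Saa3, 1.31 for Ltf, 1.03 for Reg3g, 0.93 for Slpi, -0.70 for Wfdc2, 1.497 for Lcn2, -1.55 for Lyz2 and -1.19 for Chia1. Mesothelial and fibroblast markers moved with the group as well: 15 of 16 were called higher and 0 lower, and their sum was 363, 355 and 725 CPM in controls and 1442, 1552 and 1559 CPM in the libraries labelled knockout. Endothelial markers, 1 of 12 called higher and 0 lower, summed to 592, 593 and 534 CPM in controls. In libraries 1 to 3 labelled knockout they summed to 881, 919 and 536 CPM. Markers of type I alveolar cells, 1 of 11 called higher and 4 lower, summed to 2678, 2491 and 2412 CPM in controls. Their sums in the libraries labelled knockout were 1718, 1719 and 1677 CPM. The part of these cell types in the rise of Saa3, Slpi, Lcn2 and Ltf was not tested.

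The windows before Lcn2, Saa3 and Reg3g are printed as those of 3 of the 4 genes with a positive fold that were lowest in library 3 of the knockout label, the other being Slpi, whose 3 values lay close together (250 bases before the RefSeq start, GRCm38.p6, minus strand). Capitals mark TTNNGCAA, the NF-kB consensus or the TATA box (TATAAA, sense strand only):
Lcn2, chr2:32387740-32387989: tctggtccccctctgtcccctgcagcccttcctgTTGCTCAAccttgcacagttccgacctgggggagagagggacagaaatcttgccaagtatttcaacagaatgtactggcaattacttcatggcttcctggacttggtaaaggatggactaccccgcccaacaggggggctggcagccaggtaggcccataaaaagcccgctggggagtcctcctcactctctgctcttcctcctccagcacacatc
Saa3, chr7:46715677-46715926: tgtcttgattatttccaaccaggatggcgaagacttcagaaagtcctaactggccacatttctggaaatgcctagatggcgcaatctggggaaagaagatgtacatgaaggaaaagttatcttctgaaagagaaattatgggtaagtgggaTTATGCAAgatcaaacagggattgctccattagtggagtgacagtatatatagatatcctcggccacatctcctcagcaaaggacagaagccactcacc
Reg3g, chr6:78468875-78469124: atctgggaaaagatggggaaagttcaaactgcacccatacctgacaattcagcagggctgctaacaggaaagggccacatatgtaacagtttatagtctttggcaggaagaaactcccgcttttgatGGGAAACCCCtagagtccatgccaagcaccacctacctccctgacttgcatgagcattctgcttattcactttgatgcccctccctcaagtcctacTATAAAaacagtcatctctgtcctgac
The Lcn2 core is on the strand opposite to the gene at -216 to -209, and the Saa3 core at -99 to -92. Reg3g has an NF-kB match at -123 to -114 and a TATA box at -27 to -22. All 9 genes had a window in the RefSeq table. The looser core TTNNGNAA was in 7 of them and in 36.9% of 27018 windows of the same length. TTNNGCAA, which overlaps it and was chosen after those matches were seen, was in 5 of the 9 (Lyz1, Lcn2, Slpi, Saa3 and Ltf) and in 9.56% of all. The NF-kB consensus was in 1 of 9 and 7.01% of all, and TATAAA in 2 of 9 and 8.12%. The STAT site TTCNNNGAA (7.18% of all windows), the ATF4-C/EBP composite TGATGCAA (0.818%) and the ER stress element (0.122%), searched on both strands, had their letters in none of the 9 windows.

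Chia1 (chromosome 3, 106113229 to 106132120, plus strand; ENSMUSG00000062778.12) encodes a chitin-degrading enzyme of the lung epithelium. It was at 745, 672 and 636 CPM in controls and at 289, 271 and 376 CPM in the libraries labelled knockout. As for Lyz2, library 3 labelled knockout was the least reduced. Chia1 fell 2.19-fold (log2 fold -1.13 with an SE of 0.154, edgeR adjusted p = 0.00204). In libraries 1 to 3 labelled knockout the log2 level relative to the mean of the controls was -1.37, -1.41 and -1.08 for the summed AT2 markers, -1.24, -1.34 and -0.87 for Chia1 and -1.63, -1.73 and -1.19 for Lyz2. Lyz1, at -0.61, -0.69 and -0.77, and Wfdc2, at -0.50, -0.58 and -0.59, did not share that order. Libraries 1 and 2 lay close together, so the order rests mainly on library 3. That library was also nearest the controls for Hspa5, Lcn2, Saa3 and Reg3g.

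**Figure D3:**
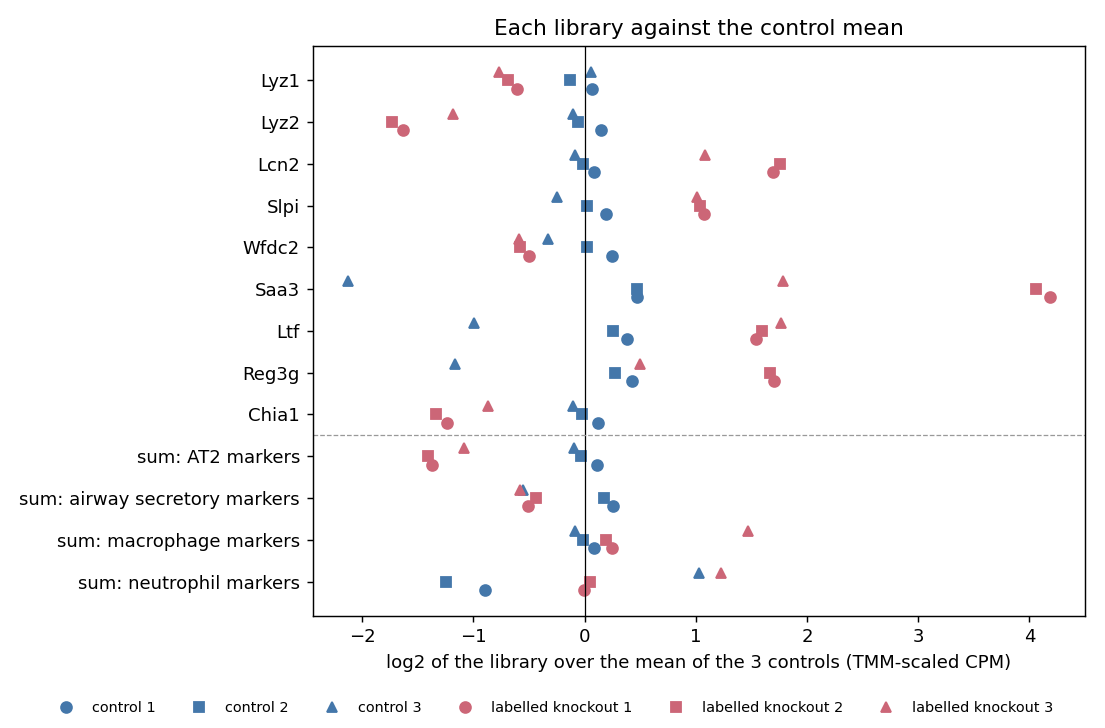
Log2 of each library over the mean of the 3 controls (horizontal axis, TMM-scaled CPM) for the 9 genes and, under the dashed line, for summed markers of AT2, airway secretory, macrophage and neutrophil cells, with controls in blue, libraries labelled knockout in red and the symbol giving the library number. Lyz2, Chia1 and the AT2 sum order the red symbols alike, and in control 3 (blue triangle) Saa3, Reg3g, Ltf and the airway sum lie below the other controls.

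**Figure D4:**
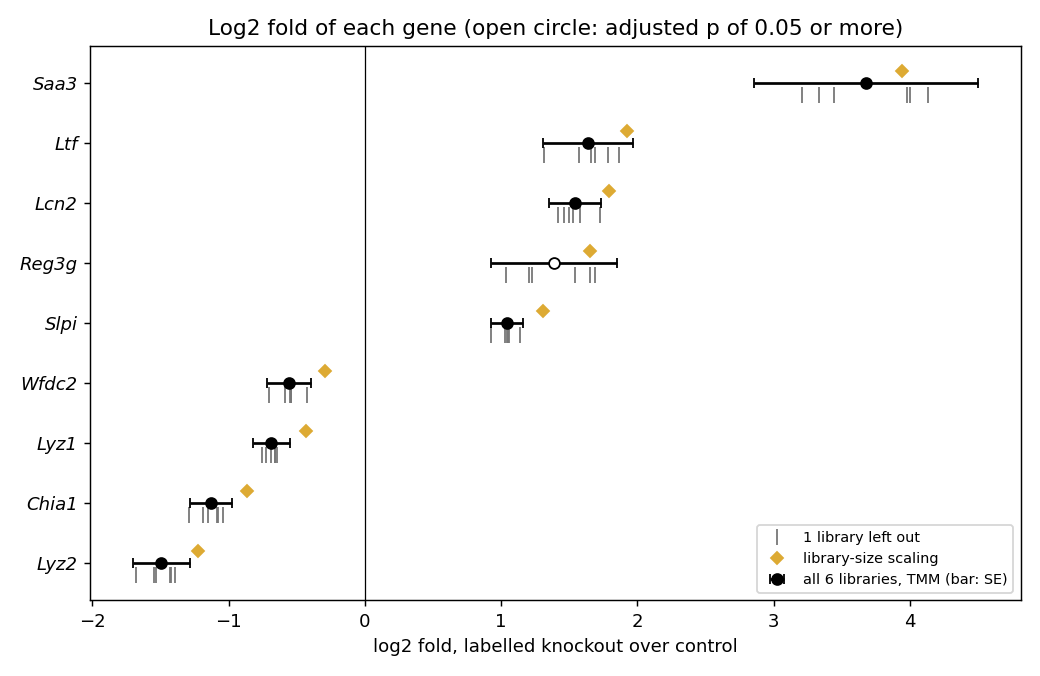
Log2 fold of the libraries labelled knockout over controls (horizontal axis) for each of the 9 genes, with all 6 libraries (circle with SE, open where edgeR's adjusted p is 0.05 or more), with 1 library left out (grey ticks) and with scaling by library size alone (diamonds). No value crosses 0. The grey ticks run from 3.20 to 4.13 for Saa3 and from 1.03 to 1.69 for Reg3g, against 0.93 to 1.14 for Slpi.

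For each of the 9 genes the single gene with the most similar profile was found, by the root-mean-square difference between log2 CPM values over the 6 libraries after centring each gene on its mean. Lyz2 was nearest to Ret, a receptor tyrosine kinase gene (difference 0.041), Chia1 to Nipal1 (0.052), Lyz1 to Paqr7 (0.053) and Wfdc2 to C1galt1c1, a chaperone gene for O-glycosylation (0.042). Lcn2 was nearest to Rcan1, an inhibitor of calcineurin (0.049), and Slpi to Rfc4, a DNA replication factor gene (0.047). Saa3 had no close neighbour. Its nearest was Chac1, a glutathione-degrading enzyme gene known as an ATF4 target, at a difference of 0.43. Chac1 was at 11.2, 10.2 and 1.63 CPM in controls and at 70.3, 66.6 and 23.8 CPM in the libraries labelled knockout. Reg3g was nearest to Tnfrsf12a (0.16) and Ltf to the interferon-induced gene Ifi44 (0.14).

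Paralogs of the 9 genes were mostly at or near 0. Of 47 with a row in the table, 16 were tested, of which 4 were called higher and 3 lower (7 of 16, or 43.8%, against 36.8% of all genes tested), with a median log2 fold of -0.11 against 0.02 for all genes. The lower ones were Chil1, an abundant chitinase-like gene (2753 ± 661 to 1369 ± 227 CPM, SD, n = 3 each, log2 fold -1.01, edgeR adjusted p = 0.00946), Lyzl4 (-1.13) and Wfdc12 (-4.09). Those that rose were Chit1, the other true chitinase (log2 fold 3.39), Chil4 (3.21), Wfdc13 (1.32) and Reg1 (1.27). Of these 7, all but Chil1 and Chil4 stayed below 3 CPM in every library. The call of Chil4 ended without control 2 (edgeR adjusted p = 0.0854) or library 1 labelled knockout (0.0691). Those of Lyzl4 and Reg1 ended without any 1 library other than library 3 labelled knockout (edgeR adjusted p up to 0.105 and 0.114). Saa1, Saa2 and Saa4 were below 0.3 CPM in every library and were not tested, and the same was true of Reg3a, Reg3b and Reg3d, which had at most 0.0148 CPM.

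Other secreted defence and acute-phase genes went both ways, with more rises than falls. Of 50 tested out of 61 with a row, 17 were called higher and 8 lower (50%, against 36.8% of all genes tested), with a median log2 fold of 0.45 against 0.02. Cfb, the protease of the alternative complement pathway, rose from 25.2 ± 1.11 to 77.7 ± 7.70 CPM (SD, n = 3 each; log2 fold 1.62, SE 0.099, edgeR adjusted p = 0.000253). Ang and Rnase4, which encode secreted ribonucleases and overlap in the genome so that their reads may not be separable, fell by 1.72 and 1.63 on the log2 scale. The remaining genes named here were picked after their values were seen. Orm1, an acute-phase orosomucoid gene, rose from 1.36 ± 0.318 to 27.2 ± 13.7 CPM (SD, n = 3 each; log2 fold 4.32, edgeR adjusted p = 0.00121) and was again lowest in library 3 of its group (36.3, 33.9 and 11.5 CPM). Orm2 (4.31), Serpina3n (3.28), Dmbt1 (3.05) and Ptx3 (2.79) rose as well. Of these, Orm2, Dmbt1 and Ptx3 were near the floor in controls, at means of 0.316, 0.437 and 0.392 CPM. Among the abundant ones, C3 (944 ± 40.7 and 998 ± 100 CPM) and Hp (2286 ± 405 and 2133 ± 322 CPM) did not pass the test (edgeR adjusted p = 0.642 and 0.699), and the surfactant collectin genes Sftpa1 and Sftpd fell by 1.34 and 0.53.

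**Figure D5:**
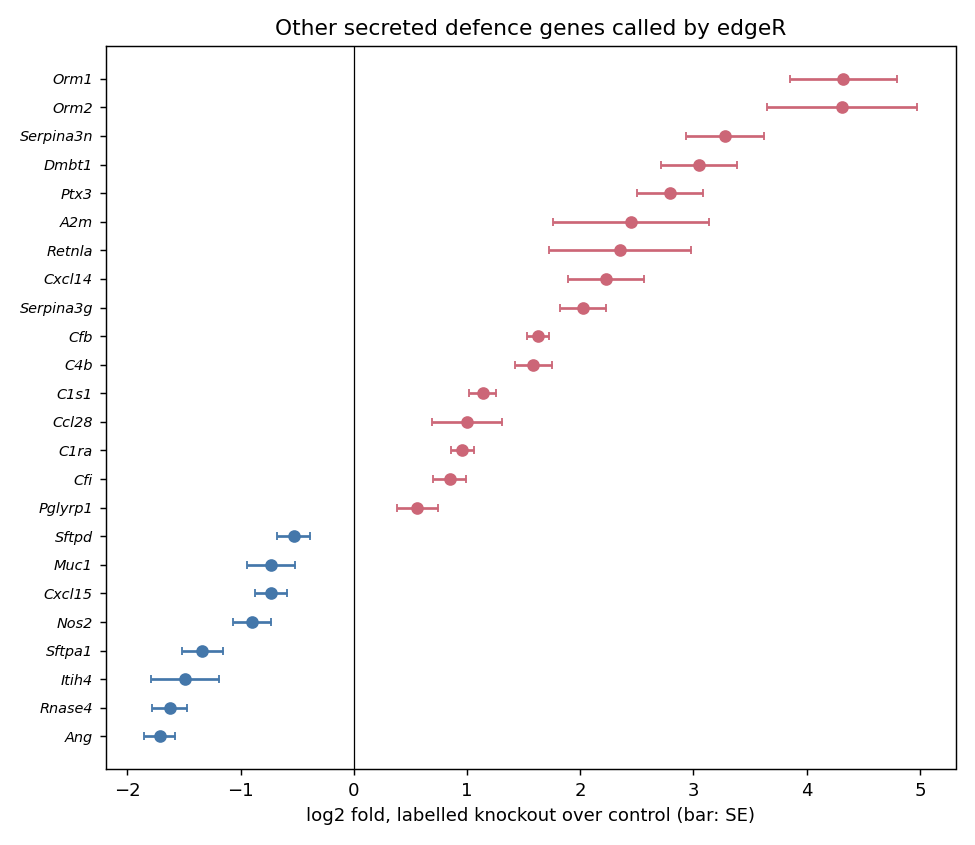
Log2 fold (horizontal axis) with SE of other secreted defence genes called by edgeR (1 called gene is not shown), red for higher and blue for lower in the libraries labelled knockout. Orm1 and Orm2 stand at the top, at 4.32 and 4.31, and Ang and Rnase4 at the bottom, at -1.72 and -1.63.

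Genes of the cytokine pathways known to induce these proteins went both ways. Of 58 tested, 8 were called higher and 15 lower (39.7%, against 36.8% of all genes tested), with a median log2 fold of 0.06 against 0.02. Il6, the main inducer of the acute-phase response, rose from 1.83 ± 0.359 to 5.01 ± 1.09 CPM (SD, n = 3 each; log2 fold 1.45, SE 0.222, edgeR adjusted p = 0.00307). Lifr, a receptor chain of the same cytokine family, fell by 1.24 on the log2 scale, Cebpa, a factor of the C/EBP family, by 1.20, and Nfkb1 by 0.52. The call of Nfkb1 ended with scaling by library size alone (log2 fold -0.26, edgeR adjusted p = 0.0882). With the replicate block 15 of these genes were called higher and 18 lower, and with library-size scaling 22 higher and 3 lower. Stat3 was called lower (256 ± 13.1 to 192 ± 6.08 CPM, SD, n = 3 each), a gene named after its value was seen. Its call was not followed through the alternatives. Besides Il6, those called higher were Il1rn (log2 fold 2.53), Tnf (2.27), Lif (1.28), Il1b (1.06), Tlr2 (0.84), Socs1 (0.79) and Tnfrsf1b (0.63). Il1rn, Tnf and Il1b were near the floor in controls, at means of 0.168, 0.056 and 0.372 CPM.

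Receptors, target proteases and iron-handling partners of the 9 proteins also went both ways. Of 33 tested, 5 were called higher and 9 lower (42.4%, against 36.8% of all genes tested), with a median log2 fold of -0.22 against 0.02. Slc22a17, a receptor for lipocalin 2, fell from 17.5, 17.3 and 15.4 CPM to 6.49, 5.91 and 7.55 CPM (log2 fold -1.33 with an SE of 0.122, edgeR adjusted p = 0.000644). Cd36 and Ager, which bind serum amyloid A, fell by 1.14 and 1.31 on the log2 scale. The 5 that rose were Tfr2 (log2 fold 3.95), the Steap family genes Steap1 (2.60) and Steap3 (0.66), the iron exporter gene Slc40a1 (1.92) and Lrp1 (1.04), a receptor for lactotransferrin. Tfr2 was near the floor, at 0.0526 to 0.184 CPM in controls and 1.05 to 2.22 CPM in the libraries labelled knockout. Slc40a1 was also low, at a mean of 0.622 CPM in controls, and was highest in library 3 labelled knockout (3.89 CPM). Of the neutrophil proteases that Slpi inhibits, Elane was at 0.0148 to 1.80 CPM and Ctsg at 0.0296 to 0.68 CPM in single libraries, and neither passed the test (edgeR adjusted p = 0.362 and 0.546).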

How the data were processed

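The authors deposited raw counts per gene symbol in 1 table. Per the labels' protocols these come from paired reads of NEBNext Ultra RNA libraries. Per the submitters' processing notes reads were placed on mm10, and edgeR 3.7 is listed. Which aligner, counter and gene annotation served is not given in the sources used here. Genes at a count of 2 were 1.63 to 1.76 times as many as genes at a count of 1, as when both mates are counted, so counting error exceeds what the counts imply. The kit label names no strand, so overlapping genes are not separable.

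After filterByExpr and TMM scaling, counts were put to a robust quasi-likelihood F test whose model held the group alone (edgeR 4.0.16, R 4.3.3), with Benjamini-Hochberg adjustment over 18849 genes. Each SE was obtained as the size of the log2 fold over the root of its F statistic. The script was tested on simulated data with known changes in few genes and no scaling difference built in between groups. That test does not bear on the choice of scaling. Coordinates and exon lengths are GENCODE M21's, which matched 48018 of 52550 symbols, and identities were aligned with Biopython 1.88. Promoters are RefSeq's (GRCm38.p6, the same assembly as mm10), 1 window a gene.

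The pairing of libraries by number was checked by correlating, over genes, each library's departure from its group mean. Libraries sharing a number gave 0.174, 0.147 and 0.281, each over the 0.1 used here as the criterion. What the numbers stand for is not in the labels, which name no covariate, and the main model held the group alone. Crossed pairs of numbers 1 and 2 gave 0.0897 and 0.116. The latter also passes 0.1, so the criterion cannot tell pairing from likeness among libraries 1 and 2. Crossed pairs with a library numbered 3 gave -0.227 to -0.181. Replicates of a group all differed by more than sampling noise (chi-square of at least 7.90 for each gene on average, on halved counts). They were not equally far apart. Libraries 1 and 2 gave 19.4 in controls and 7.90 in the knockout label. Pairs with library 3 gave 111 and 77.2 in controls and 168 and 136 in the knockout label. Fits without a library numbered 3 keep the closer pair of that group, so their adjusted p rest on a smaller spread. Members and lists were chosen with earlier results of these data known. Genes outside the 9 were named by rule: the 4 lowest adjusted p among a list's called genes, every call of a direction with 5 or fewer, and the nearest profile of each of the 9 genes among genes at a mean of 1 CPM or more. Of the genes the rule names, 1 is not reported here. Alternatives were DESeq2 1.42.0, limma-voom (limma 3.58.1), 3 scalings, 2 filters, halved counts, the replicate block, summed lysozymes, and libraries left out.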

Additional observations from a re-analysis of the deposited data

How the results depend on the processing

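All 9 genes kept their direction under every alternative run, and Lyz1, Lyz2, Lcn2, Slpi, Ltf and Chia1 also kept their call. Wfdc2 lost it in 5 of 16 alternatives, Saa3 in 2, and Reg3g gained one in 9. The replicate block changed no other call among the 9. With 1 library left out, 3 to 5 of the 9 were called higher and 3 or 4 lower, and the lysozyme ratio differed by 0.72 to 1.03 (log2).

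Counts of calls moved more. Over all genes tested, 3391 were higher and 3547 lower. These counts were 6218 and 1343 with library-size scaling, which moves the median gene by 0.26 (log2) and makes 82.2% of calls higher (59.2% with upper-quartile factors, 48.9% with TMM). Without both libraries numbered 3 they were 5355 and 5226, and with 1 library left out 1684 to 4242 and 1881 to 4306. In the other defence genes, 11 were higher with a 5 CPM filter. Without both libraries numbered 3, 26 were higher and 16 lower, and with 1 left out 13 to 19 and 6 to 10. In the paralogs, 2 were higher and 1 lower with the 5 CPM filter, 7 and 6 without both libraries numbered 3, and 2 to 6 and 2 or 3 with 1 left out. In the cytokine pathway genes, 22 were higher and 3 lower with library-size scaling, 13 and 9 with upper-quartile factors, 15 higher with the replicate block, 18 higher without both libraries numbered 3, and 4 to 14 and 5 to 15 with 1 left out. In the receptors and proteases, 11 were higher and 4 lower with library-size scaling, 3 higher with the 5 CPM filter, 8 and 14 without both libraries numbered 3, and 5 to 8 and 4 to 12 with 1 left out. The causes were not tested. Saa3 and the low paralogs rest on few counts in controls.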
